A study of Mus musculus with 6 samples.

Results

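The regions described here were the most strongly MeDIP-enriched promoter regions among those covered entirely by short probes on a mouse promoter array. Probes were joined into a region while their starts followed each other within 500 bp. Of 25035 regions on the array, 609 lay on autosomes, held 5 to 19 probes and had only probes of 45 bases. The members were selected on the mean log2(MeDIP/input) over all 6 arrays, and the highest 20% were taken, which gave 122 of the 609 regions. All 122 members held at least 3 probes that were not marked as outliers and entered the tests. The other 487 regions of 45-base probes are the main comparison. The array files give positions in mm9 and the ends of each probe, but no gene names and no probe sequences. The members are therefore named by position, and whether they are rich in G and C was not analysed here.

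The arrays carried genomic DNA from adipose tissue of female C57BL/6J offspring at 32 weeks of age, with 3 mice per group and 1 array per mouse. LC mice were born to dams on a low chromium diet during gestation and lactation and ate the control diet after weaning. CC mice and their dams had the control diet throughout. The study asked whether chromium restriction of the mother leaves a lasting change in promoter methylation in adipose tissue. The methods put 1 female pup of a litter in a group and do not name the fat depot for the arrays. Adipose tissue holds adipocytes beside vascular and blood cells, and a different mix of cells cannot be told apart from a different methylation within cells in such bulk DNA.

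DNA methylation in mammals is mostly found on cytosines that precede a guanine. Many promoters lie in stretches dense in such CpG sites, and these stretches are typically free of methylation in somatic tissue, apart from imprinted, germline and X-linked genes. In MeDIP, an antibody against 5-methylcytosine pulls down methylated fragments. The pulled-down DNA was labeled with Cy5 and the unenriched input DNA of the same mouse with Cy3, so that a higher ratio stands for more antibody-bound DNA at a probe. The pull-down also grows with the number of CpG sites in a fragment, so a ratio is not a percentage of methylated sites. All values below are log2(MeDIP/input) with the median of each array subtracted, unless a channel is named, so that 0 is the middle probe of an array.

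The level of the members is a description, because it chose them. The mean over 6 arrays ran from 0.74 to 1.62, with a median of 0.90 and a middle range of 0.80 to 1.02 (25th to 75th percentile). The other 487 regions of 45-base probes ran from -1.14 to 0.74, with a median of 0.28. Over all 19707 autosomal regions of 5 to 19 probes, the median was -0.13, and 800 of them (4.06%) were at or above the lowest member. The share at or above that level fell with the share of short probes in a region. Where all probes were 45 bases long it was 20% by construction. It was 6.10% (547 of 8965 regions) where more than 50% but not all were, 1.45% (126 of 8711) where fewer were, and 0.352% (5 of 1422) where none was. On chromosome X, 12 regions met the same probe criteria, and their levels ran from -1.03 to 0.67, below the lowest member in each case.

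**Figure D1:**
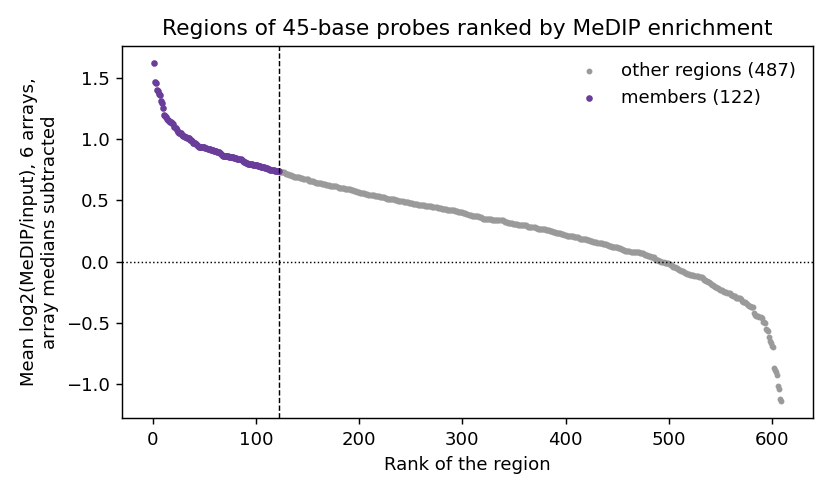
Mean log2(MeDIP/input) over the 6 arrays (vertical axis, array medians subtracted) against rank (horizontal axis) for the 609 autosomal regions of 45-base probes. Purple points are the 122 members, which start at 1.62 and reach 0.74 at the dashed line, and grey points are the other 487 regions. The curve has no step at the line.

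The ranking had no gap at its threshold. The last members were the region ranked 120 (chr5:136720447-136722062, mean 0.742), the region ranked 121 (chr14:122874759-122875664, 0.739) and the region ranked 122 (chr13:49062185-49064348, 0.737). The next regions, which are no members, were at 0.736 (chr2:154233321-154234199), 0.735 (chr5:140797247-140798355) and 0.734 (chr1:95056978-95058735). Membership near the line is thus a matter of the third decimal. Of the 122 members, 111 also fell in the highest 122 when the ranking used the CC arrays alone and 112 when it used the LC arrays alone.

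The highest member was an 870 bp region of 5 probes on chromosome 9 (chr9:44142341-44143210). Its level was 1.41, 1.76 and 1.39 on LC arrays 1 to 3 and 1.77, 1.66 and 1.75 on CC arrays 1 to 3. The groups overlapped there, since LC replicate 2 lay above CC replicate 2. Next came chr5:30890699-30892259, a region of 8 probes with a mean of 1.47. Its LC arrays were at 1.46, 1.45 and 1.30 and its CC arrays at 1.51, 1.51 and 1.58, so that all LC values lay below all CC values by a small margin. The region ranked 3 (chr2:33286350-33287378, mean 1.46) was wider apart, with 1.07, 1.36 and 1.38 on the LC arrays and 1.68, 1.72 and 1.52 on the CC arrays. The region ranked 4 (chr5:25004886-25006029, mean 1.41) had LC replicate 1 far below the rest, with 0.91, 1.42 and 1.24 on the LC arrays against 1.62, 1.64 and 1.61 on the CC arrays.

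The regions ranked 5 to 10 were chr11:5161116-5162195, chr4:153330965-153331844, chr17:84104719-84105866, chr7:52938172-52939737, chr1:182743243-182744828 and chr11:120521652-120523386. Their means fell from 1.40 to 1.25. In 5 of these 6 regions all LC arrays lay below all CC arrays. The exception was the region on chromosome 17, with 1.22, 1.35 and 1.44 on the LC arrays and 1.39, 1.31 and 1.46 on the CC arrays. Such a separation was also found in 64.3% of the other 45-base regions and in 20.5% of all regions tested. The regions ranked 10, 2 and 8 were also those with the most probes (9, 8 and 8) among the highest 10% of members, so that high levels were not limited to regions of 5 probes.

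**Figure D2:**
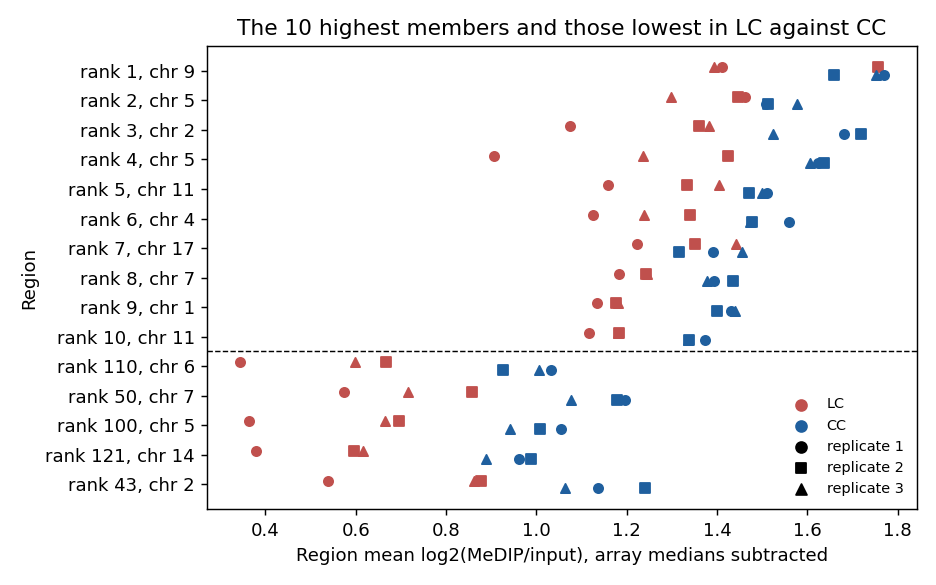
Region mean log2(MeDIP/input) with array medians subtracted (horizontal axis) on each of the 6 arrays, for the 10 highest members (above the dashed line) and for those with the largest differences between groups that are not among the 10 (below it). Red symbols are LC and blue symbols CC, with a shape for each replicate number. In the region ranked 110, LC arrays lay at 0.34 to 0.67 and CC arrays at 0.93 to 1.03.

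The members were high along most of their length rather than at a single probe. They held 868 probes, of which 761 (87.7%) lay above the array median, against 62.8% of the 3676 probes in the other regions of 45-base probes. The median probe was at 0.99 and the 5th and 95th percentiles were -0.42 and 2.19. In 39 members every probe was above 0, and 83 members held at least 1 probe below it. The other regions had every probe above 0 in 5 of 487 cases. These shares follow in part from the ranking, which used the same probes. Means by distance from the centre of the region were 0.99 within 200 bp, 0.89 at 200 to 400 bp, 0.98 at 400 to 600 bp, 0.89 at 600 to 800 bp and 0.87 at 800 to 1000 bp. The outermost probes were higher than the inner ones in 59 members and lower in 63.

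Members differed in how even they were. The SD between probes of a region had a median of 0.78 and ran from 0.21 to 1.69, and the median was 1.04 in the other regions. By the range between the highest and the lowest probe, the widest member was chr11:75609285-75610576, ranked 98. Its first probe was at -2.37, the probe starting at 75610118 was at 3.02, and the remaining 5 ran from 0.22 to 1.66. The region ranked 122 had a probe at -2.49 between neighbors at 1.72 and 1.70. Each of these lowest probes missed the well-above-background flag of the MeDIP channel on at least 1 array, and 0 member probes were saturated. The region ranked 91 (chr5:122840921-122842373) was the third by range, with probes from -1.39 to 2.65. The member with the smallest range was chr4:133309795-133310774, ranked 14, whose 5 probes lay between 0.92 and 1.36. The regions ranked 75 (chr17:47521770-47522633) and 52 (chr8:86117906-86118834) followed by range, with probes from 0.62 to 1.08 and from 0.33 to 1.34.

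Features that the ranking did not use were much alike in members and other regions of 45-base probes. The members held a median of 7 probes (5 to 10) against 8 (5 to 15), and their median length was 1565 bp against 1615 bp. The next region on the chromosome was a median of 17660 bp away for members and 14307 bp for the others. Members lay on all 19 autosomes. Chromosome 6 had the highest share of its 45-base regions among the members (9 of 25, 36.0%), followed by chromosome 9 (11 of 33, 33.3%), and chromosome 14 the lowest (1 of 15, 6.67%). Chromosome 17, which held 53 regions of 45-base probes, had 6 members (11.3%). Only 6 members lay within 50000 bp of another member, as 3 pairs. These were at chr5:122821636-122842373, chr9:57468082-57493710 and chr10:80986471-81038429. None of these feature differences was tested.

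Both channels set the members apart. With each channel centered on its array median, the members' median MeDIP signal was 1.68 on the log2 scale against 1.20 in the other regions, and their median input signal was 0.81 against 1.02. Thus the high ratio of the members went with more MeDIP signal and also with less input signal than in the other regions of 45-base probes. Both are parts of the ranked ratio and are given as a description. The signals were not near the detection limit. Of the members' probes, 97.7% were well above background in input and 98.0% in MeDIP on all 6 arrays. The shares were 96.8% and 92.8% in the other regions of 45-base probes and 88.8% and 74.2% of all probes.

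The arrays differed before any comparison of members. The median raw input signal of all probes was 105.25, 169 and 126 on the LC arrays and 239.5, 333.5 and 314 on the CC arrays. LC DNA was always at slide position 1 and CC DNA at position 3, and the effects of position and diet cannot be told apart. Across the 609 regions, Pearson's r between levels was 0.962 to 0.978 within LC, 0.985 to 0.988 within CC and 0.907 to 0.965 between the groups, where regions of an array share its hybridization and are not replicates. With 3 arrays a group, the number of arrays limits the precision. LC replicate 1 stood apart. It was the lowest of the 6 arrays in 100 of the 122 members. In the other 487 regions of 45-base probes, too, its median was the lowest (0.11, against 0.23 to 0.38 on the other arrays). The members' median difference, the count called lower by limma and the largest falls are given with and without LC replicate 1.

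The comparison between diets is another contrast than the ranking, in which both groups weighed the same, although the size of a difference can follow the level. Members were lower in LC than in CC. Their median level was 0.72, 0.86 and 0.82 on LC arrays 1 to 3 and 1.04, 0.99 and 1.005 on CC arrays 1 to 3, so that the group means of these medians were 0.80 ± 0.08 (SD, n = 3) and 1.01 ± 0.03 (SD, n = 3). At a level of 1 or more there were 12, 24 and 25 members on the LC arrays against 75, 58 and 63 on the CC arrays. The difference of LC minus CC had a median of -0.20 over the members, with a range of -0.45 to 0.05. It was below 0 in 120 of 122 members (98.4%), whereas it was below 0 in 46.2% of all regions tested, whose median difference was 0.02. The median was -0.16 in the other regions of 45-base probes, of which 443 of 487 were lower in LC. It was -0.12 in the lowest 122 of the 609. Without LC replicate 1, the members' median difference was -0.15.

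**Figure D3:**
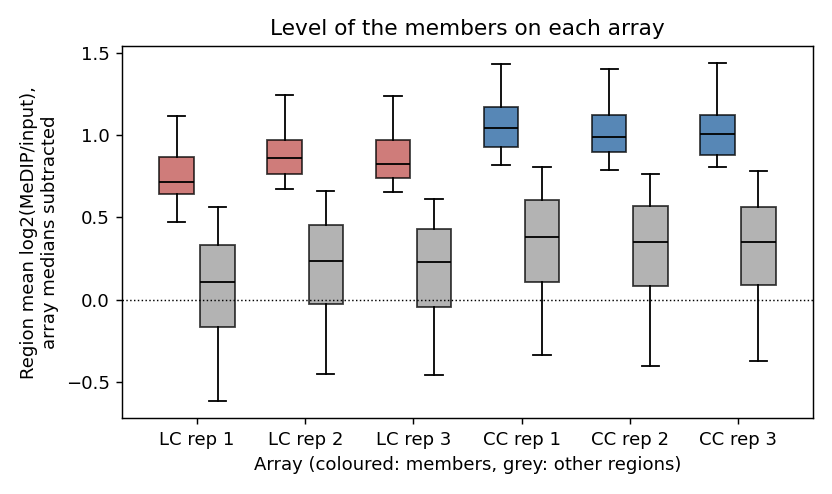
Region mean log2(MeDIP/input) with array medians subtracted (vertical axis) on each array (horizontal axis) for the 122 members (red in LC, blue in CC) and the other 487 regions of 45-base probes (grey). Boxes span the 25th to 75th percentile with the median as a line, and whiskers reach the 5th and 95th percentiles. Member medians were at most 0.86 in LC and at least 0.99 in CC.

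With limma and Benjamini-Hochberg adjustment over all 22569 regions tested, at a threshold of 0.05, 67 of 122 members (54.9%) were called lower in LC. Over all regions, 8.86% were called lower. No member was called higher by limma, whereas 10.1% of all regions were. At an unadjusted p under 0.05, 97 members were lower, against 17.2% of all regions, and 0 were higher, against 21.5%. The methods' t-test, after the same adjustment, called 0 of all regions in either direction. In 94 members (77.0%) all LC arrays lay below all CC arrays, against 20.5% of all regions, and in 0 members did all LC arrays lie above, against 24.0% of all regions. Of the other 487 regions of 45-base probes, 180 (37.0%) were called lower and 1 higher. In 313 of them (64.3%) all LC arrays lay below all CC arrays. Ordered in 5 sets of 121 or 122 by level, from the top, the 609 regions gave 67, 55, 44, 45 and 36 calls of lower and median differences of -0.20, -0.17, -0.15, -0.16 and -0.12. The difference between these sets was not tested.

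**Figure D4:**
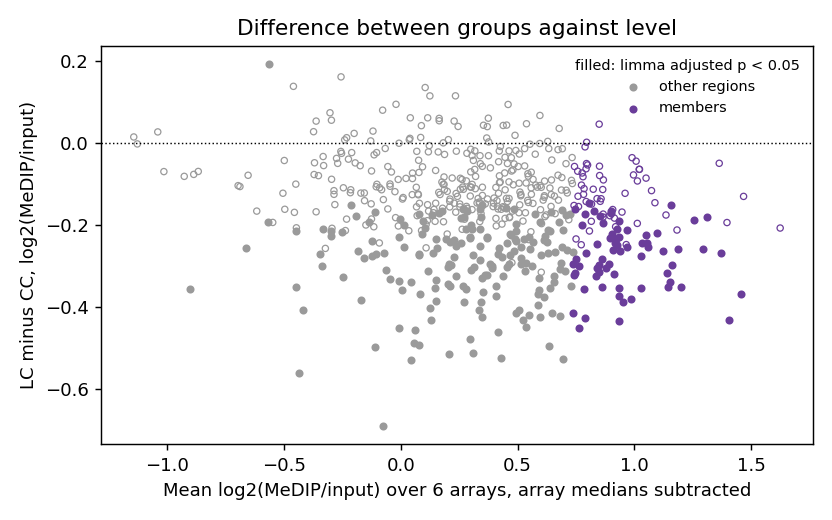
Difference of LC minus CC in log2(MeDIP/input) (vertical axis) against the mean level over 6 arrays (horizontal axis) for the 609 regions of 45-base probes, with members in purple and other regions in grey. Filled points passed limma's adjusted p threshold of 0.05, which were 67 members and 181 other regions. Nearly all members lie below 0, and so do most other regions.

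These calls changed when arrays were left out and when the scan day was made a block. Each scan day held 1 LC and 1 CC array with the same replicate number. The members' median difference within a day was -0.31, -0.14 and -0.15, with 121, 112 and 116 of them lower. Of the other 487 regions of 45-base probes, 450, 400 and 428 were lower. Of all 22569 regions tested, 10566, 10486 and 10816 were. With the scan day as a block, 0 members passed limma's adjusted threshold (smallest adjusted p = 0.0506), with 92 at an unadjusted p under 0.05, and 0 of all regions passed it. The block leaves the fit fewer degrees of freedom. Deviations from the group means, between arrays of the same number, correlated at -0.16, 0.11 and -0.0003 over all regions tested. Whether the scan day itself had a part was not tested. Leaving out LC replicate 1, 40 members (32.8%) were called lower, against 5.36% of all regions, and leaving out CC replicate 2 the count was 25 (20.5%), against 2.31%. Without CC replicate 1 or CC replicate 3, limma called 0 members lower and also 0 of all regions, with 79 and 84 members at an unadjusted p under 0.05. Shares of all regions at an unadjusted p are not given for these fits or for the block, so these counts are no result about the members. In the main fit 17.2% of all regions and 60.0% of the other 45-base regions were lower at that threshold. The share of members called lower was above that of the other 45-base regions here (54.9% against 37.0%), but below it after quantile normalization (17.2% against 21.4%), after giving every array the same spread (13.9% against 19.5%) and after removing a trend on level (15.6% against 22.2%). With the authors' values these shares were nearly equal (26.2% against 25.9%). The members' median difference was -0.052 when arrays were centered on the 45-base probes, which moved the median of all regions to 0.165.

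The largest fall was in the region ranked 110, chr6:28211196-28212675, which holds 8 probes over 1480 bp. It was at 0.34, 0.67 and 0.60 on the LC arrays and at 1.03, 0.93 and 1.01 on the CC arrays. The difference was -0.45 (SE 0.079, limma adjusted p = 0.0187). In the region ranked 50, chr7:146373894-146375170, LC arrays were at 0.57, 0.86 and 0.72 and CC arrays at 1.20, 1.18 and 1.08. It fell by 0.44 (SE 0.071, limma adjusted p = 0.0187). The region ranked 4, given above, fell by 0.43 (SE 0.105, limma adjusted p = 0.0271). In each of these regions LC replicate 1 was the lowest array and the groups did not overlap. Without that array the differences were -0.36, -0.36 and -0.29 (limma adjusted p = 0.0184, 0.0198 and 0.0259).

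The region ranked 100, chr5:100467735-100469459, was at 0.36, 0.70 and 0.67 on the LC arrays against 1.06, 1.01 and 0.94 on the CC arrays, a difference of -0.43 (SE 0.083, limma adjusted p = 0.0194). The region ranked 121 on chromosome 14, close to the threshold of the ranking, was at 0.38, 0.60 and 0.62 in LC and at 0.96, 0.99 and 0.89 in CC, a difference of -0.42 (SE 0.067, limma adjusted p = 0.0187). The region ranked 43, chr2:130121260-130122121, was at 0.54, 0.88 and 0.86 in LC and 1.14, 1.24 and 1.06 in CC, a difference of -0.39 (SE 0.088, limma adjusted p = 0.0240). In these, too, LC replicate 1 lay well below the other LC arrays, and without it the differences were -0.32, -0.34 and -0.28 (limma adjusted p = 0.0198, 0.0184 and 0.0273). All members stayed above 0 on every array, the lowest value being 0.34. Only 2 members were higher in LC, and they are named because of their values. These were chr17:27639755-27641543 (difference 0.05, SE 0.061, limma adjusted p = 0.594) and chr5:122821636-122822942 (difference 0.002, SE 0.058, limma adjusted p = 0.983). The latter forms a pair, within 20738 bp, with the region ranked 91, which was called lower (difference -0.15, SE 0.044, limma adjusted p = 0.0444).

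The difference between groups lay mostly in the input channel. After quantile normalization of each channel, limma called 49 members (40.2%) higher in LC in the input channel, against 6.96% of all regions. It called 0 lower, also 0 at an unadjusted p under 0.05, against 7.17% of all regions. Of the other 45-base regions, 21.6% were called higher in input. Without CC replicate 3 the input count was 11, against 1.04% of all regions, and without CC replicate 1 it was 21, against 2.33%. When the input channel was centered on array medians in place of quantile normalization, it was 85, against 13.1%. In the MeDIP channel limma called 0 of all regions tested in either direction, members included (smallest adjusted p = 0.381 among the members). At an unadjusted p under 0.05 there, 11 members (9.02%) were lower, against 5.5% of all regions and 10.3% of the other 45-base regions. In the other direction there was 1 member, against 5.37% of all regions and 0.821% of the other 45-base regions. The members' median difference was 0.14 for input and -0.02 for MeDIP, and in 116 of 122 members the input difference was the larger in size. Of the 67 members called lower in the ratio, 46 were also called higher in the input channel. The input is the denominator of the ratio, so these calls share a signal and their overlap is a description.

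The channels are given by array below. Over the members' probes the median input signal was 194.5, 287 and 226.25 on the LC arrays and 372.25, 518.25 and 489.75 on the CC arrays. The median MeDIP signal was 450.5, 423 and 386.5 in LC and 481.5, 460.5 and 696.5 in CC. Raw input was thus lower in LC at the members, but less so than over all probes of those arrays, so that after centering the members' input was higher in LC. The centered input medians were 0.98, 0.89 and 0.89 in LC and 0.68, 0.70 and 0.74 in CC, without overlap, whereas the centered MeDIP medians were 1.60, 1.66 and 1.68 in LC and 1.71, 1.73 and 1.64 in CC and overlapped. The region ranked 50 had the largest input difference among the regions named for their fall, at 0.40 (SE 0.051, limma adjusted p = 0.00469), beside a MeDIP difference of -0.02 (SE 0.038, limma adjusted p = 0.906). The region ranked 121 had an input difference of 0.31 and a MeDIP difference of -0.11 (limma adjusted p = 0.00661 and 0.406). Whether the brightness of the input channel had a part in the differences of the ratio was not tested.

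**Figure D5:**
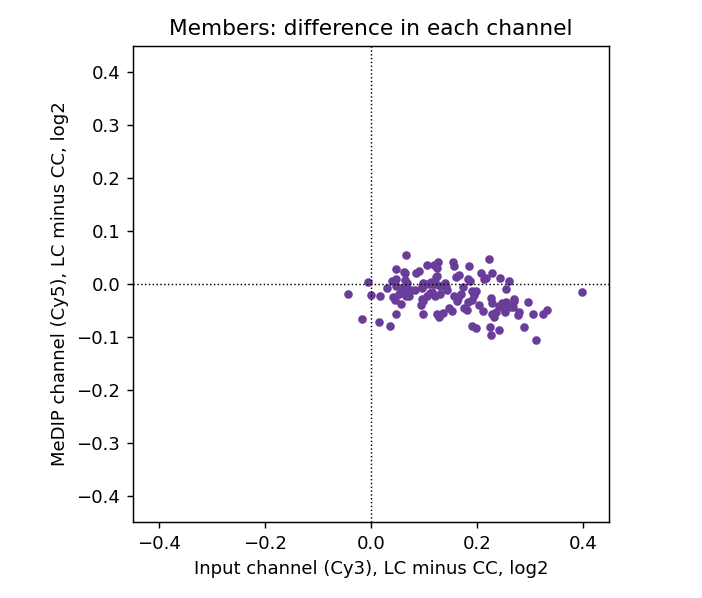
Difference of LC minus CC in the MeDIP channel (vertical axis) against that in the input channel (horizontal axis), on the log2 scale after quantile normalization of each channel, for the 122 members, with both axes on the same scale. Most points lie right of 0 and close to the horizontal line, with a median of 0.14 for input and -0.02 for MeDIP.

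Peaks were also searched along the probes, in the manner of the study's methods. A Kolmogorov-Smirnov test asked whether the probes in a 750 bp window ranked low or high among all probes in the LC minus CC difference. At least 2 adjacent probes with a score (−log10 p) of at least 2 made a peak. In 19 members (15.6%) a hypomethylated peak in LC was found, against 4.1% of all regions and 58 (11.9%) of the other 45-base regions. No member had a hypermethylated peak, against 2.2% of all regions. The 45 probes in the members' peaks had a median difference of -0.45, from -0.96 to -0.20. Of the 19 members, 16 were also called lower by limma, among them the regions ranked 43, 100 and 121. Both methods use the same probe values, and limma called 54.9% of all members lower, so the overlap is no separate evidence. The score takes probes as its unit and holds no spread between mice, and with a score of at least 3 only 2 members kept a peak.

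Under all 6 scalings of the ratio (array medians, normexp, loess, quantile, equal spread and centering on 45-base probes), 81 members (66.4%) were lower in LC, against 11.9% of all regions and 218 of the other 487 regions of 45-base probes. By limma, 14 members (11.5%) were called lower under each, against 1.34% of all regions and 50 (10.3%) of the other 487. The 14 are singled out after their values were seen. The highest of them were the regions ranked 17, 18 and 29. The region ranked 17 (chr15:87454367-87456009) was at 0.85, 1.07 and 0.99 in LC and at 1.33, 1.32 and 1.31 in CC. The region ranked 18 (chr4:84320619-84322097) was at 0.94, 1.07 and 0.94 in LC and at 1.29, 1.31 and 1.29 in CC. The region ranked 29 (chr3:58809607-58811213) was at 0.80, 0.91 and 0.85 in LC and at 1.26, 1.15 and 1.21 in CC. In none of these 3 regions did the groups overlap. The regions ranked 50, 100, 110 and 121 are among the 14, and the regions ranked 4 and 43 are not.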

How the data were processed

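Adipose DNA of 3 LC and 3 CC mice was hybridized to 6 promoter arrays with 2 colors (MeDIP DNA in Cy5, input DNA in Cy3, no dye swap). The authors deposited Feature Extraction 11.0.1.1 output, with raw and processed intensity of each dye, the log10 ratio of Cy5 over Cy3 (used to check the direction) and flags of other units (0 or 1). The deposited processed intensity was already background-subtracted and scaled by a linear factor per dye. The authors also deposited their own processed values on a log scale (named log2 here, base not stated), used as an alternative, and the text names no method of normalization. Positions in the deposited files are in mm9.

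The processed Cy5 over Cy3 signal was taken on the log2 scale, without control features, with each array's median subtracted and no loess or quantile step. Outlier probes (362 of 174638) were left out of the tests but not of the ranking. Region means were tested with limma 3.58.1 (lmFit, then eBayes, in R 4.3.3) for LC minus CC, with Benjamini-Hochberg adjustment over 22569 regions of at least 3 probes. The channels were tested in the same way after quantile normalization. Scripts were tested on simulated data. The members, the lists and the alternatives were chosen with earlier results of these data known.

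Regions were named by rule: the 10 highest members, 3 on each side of the threshold, the 6 largest non-overlapping calls in each direction, runs of members within 50000 bp, the 3 widest and 3 narrowest in probe range, and the 3 with the most probes among the highest 10%. Members with a higher level in LC and those called under every scaling were named after their values were seen. Gene lists and cell type markers were not analysed here, since positions were not paired with genes of the same build. The labels number the replicates but do not say what a number shares, so that p-values measure only the spread between these arrays. The alternatives were other background corrections (normexp, offset 50), loess, quantile, equal spread, centering on 45-base probes, the authors' values, bright probes only, replicate and slide blocks, a trend on level, medians over probes, limma's trend and robust options, the methods' t-test, a fit over short-probe regions, other peak settings and each array left out.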

Additional observations from a re-analysis of the deposited data

How the results depend on the processing

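The count of members called lower in LC (67) was 33 with normexp (6.76% of all regions), 31 with loess (6.37%), 21 with quantile (4.59%), 17 with equal spread (4.40%), 24 when centered on 45-base probes (1.83%, with 2 members called higher against 47.9% of all regions), 32 with the authors' values (9.27%), 24 with medians over probes (5.18%) and 19 with a trend on level removed (5.61%). It was 0 with the replicate block, 0 with the slide as a block and 0 by the methods' t-test, each of which also called 0 of all regions lower, and 0 with the trend and the replicate block together, which called 4 of all regions. At an unadjusted p under 0.05, these had 92, 72, 72 and 43 members. The shares of all regions at that threshold are not given for these settings, so these counts are no result about the members. In the main fit 17.2% of all regions and 60.0% of the other 45-base regions reached that threshold. Arrays with the same scan time were taken as 1 slide. LC replicate 3 and CC replicate 3 each stood alone on a slide, so the slide block takes its difference from replicates 1 and 2. Over all regions tested, the deviations of arrays with the same number correlated at -0.16, 0.11 and -0.0003. Whether the members' values were shared within a pair was not tested. Leaving out 1 array gave 0 to 75 lower. Without scan day 1, chosen after seeing the data, it was 17 (1.85% of all regions). The count was 67 with limma's trend and robust options (9.37% of all regions) and 81 with bright probes only (14.5%). In the fit over the 609 short-probe regions alone it was 88 (72.1% of members), against 51.5% of the other short-probe regions. With the authors' values 26.2% of members were called lower, against 25.9% of the other 45-base regions. The shares were 19.7% against 15.8% with medians over probes, 27.0% against 16.0% with normexp and 25.4% against 19.9% with loess. Centered on 45-base probes, they were 19.7% against 13.3%. Members called higher in the input channel (49) were 51 with the replicate block, 85 when centered on the median and 11 to 42 with 1 array left out. In the MeDIP channel no alternative called a member, and at most 12 of all regions were called lower. The median difference (-0.20) was -0.10 with normexp, -0.11 with equal spread, -0.052 centered on 45-base probes, -0.10 with the authors' values and -0.083 with the trend removed. Relative to the other 45-base regions (-0.05), it was -0.081 with normexp and turned to 0.0025 with quantile, 0.021 with equal spread and 0.034 with the trend removed. Hypomethylated peaks (19 members) were 12 in 500 bp windows, 35 in 1000 bp windows, 2 at a score of 3, 7 with at least 3 adjacent probes, 12 with normexp and 33 with the authors' values. Shares of all regions are not given for these peak settings, so these counts are no result about the members. In the main setting 15.6% of members had such a peak, against 11.9% of the other 45-base regions and 4.1% of all regions. The cause of these changes was not tested. Other ways of ranking shared 87 (medians over probes) to 121 of the 122 members. Signal over background limited few member probes, and the 3 arrays per group limit all calls.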
